A study of Homo sapiens with 24 samples.

Results

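SR proteins are RNA-binding proteins that carry a domain rich in arginine and serine and guide the choice of splice sites, and many of them also act in export and translation of mRNA. Their genes hold so-called poison exons and retained introns: when the exon is spliced in, the reading frame meets a stop codon well ahead of the last exon junction, and such transcripts are degraded by nonsense-mediated decay (NMD). Several SR proteins bind their own pre-mRNA and promote the unproductive form, so that splicing and decay together set the level of the protein.

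The genes described here are the 10 listed members of the family, SRSF1, SRSF2, SRSF3, SRSF4, SRSF5, SRSF6, SRSF7, SRSF9, SRSF10 and SRSF11, out of 57721 genes with annotated transcripts. They were chosen by name and not by a measured value. In the GENCODE 29 annotation they have 107 of the 199368 transcripts quantified, of which 22 are classed as nonsense-mediated decay and 28 as retained intron. The question was how the level of each gene, and the share of its reads in these 2 classes, stood in cells with some or most TNRC6 lost. The TNRC6 proteins are the scaffolds that join Argonaute to the factors that silence an mRNA.

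RNA of HCT116, an established human colon cancer cell line, was sequenced as 24 libraries, 3 in each of 8 groups. Of these, 4 groups were not transfected: wild type, TNRC6A-/-, TNRC6B-/- and TNRC6AB-/-. Wild-type and TNRC6AB-/- cells were also transfected with the siRNA pool siTNRC6C, which targets the third paralog, or with the non-complementary control duplex siGL2, in both cases with Lipofectamine RNAiMAX. The knockout lines were bought as lines, 1 for each genotype, so a genotype cannot be told apart from its line, and TNRC6AB-/- cells were seeded more densely for transfection. Nothing says that the 3 libraries of a group came from separate cultures, so the p-values may measure technical spread only.

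Values are given on 3 scales. CPM is the estimated reads of a gene relative to library size, scaled between libraries by the TMM method, so that a change is relative to the other genes. TPM also divides by transcript length and is used where genes are compared with each other. The NMD or retained-intron share is the percentage of a gene's estimated reads in transcripts of that class. A gene or share is said to have risen or fallen where the adjusted p of the test over all features was below 0.05 (edgeR's quasi-likelihood test with Benjamini-Hochberg adjustment, all 24 libraries in the fit). The percentage of all genes whose groups did not overlap is printed for some comparisons of gene totals only. Elsewhere, and for all class shares and exons, a lack of overlap only describes the libraries shown. A percentage of features called always refers to the adjusted p, also where a count of members at an unadjusted p stands beside it. Such a count can be set only against a percentage said to be at an unadjusted p.

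Depth ran from 28144290 to 42689320 estimated reads per library. TNRC6A averaged 68.6 CPM in TNRC6A-/- and 111 CPM in wild-type cells, TNRC6B averaged 120 CPM in TNRC6B-/- and 192 CPM in wild-type cells, and TNRC6C averaged 21.0 CPM in wild-type cells given siTNRC6C and 53.7 CPM in those given siGL2. In TNRC6AB-/- cells TNRC6C averaged 19.7 CPM with siTNRC6C and 120 CPM with siGL2. Without transfection it averaged 50.3 CPM in wild-type, 80.2 CPM in TNRC6A-/-, 69.9 CPM in TNRC6B-/- and 95.1 CPM in TNRC6AB-/- cells. Epithelial markers of the line (EPCAM, KRT8, KRT18 and CDH1) summed to 828 to 2220 CPM, blood markers to at most 5.65 CPM and endothelial markers to at most 3.55 CPM. The 5 fibroblast markers, none of them at 0 in all 24 libraries, summed to 59.0 to 98.2 CPM in TNRC6AB-/-, 40.5 to 44.6 CPM in TNRC6AB-/- siGL2 and 61.0 to 63.9 CPM in TNRC6AB-/- siTNRC6C cells. In the other 5 groups they summed to 21.7 to 37.5 CPM, and their part in the results was not tested. The mean fragment length was 164 to 171 bases in TNRC6A-/-, 181 to 191 bases in the other untransfected groups and 196 to 213 bases in the transfected ones. Retained-intron transcripts held 3.28 to 5.74% of the reads of a library. In that measure 4 libraries stood above the others of their group: TNRC6B-/- replicate 1 (5.74%), TNRC6AB-/- replicate 1 (5.15%), wild-type siGL2 replicate 3 (4.33%) and TNRC6AB-/- siGL2 replicate 3 (4.50%).

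The following sequences show how the poison exons of SRSF6, SRSF3 and SRSF7 join the message and, for SRSF6, SRSF7 and SRSF3-203, end its frame. They were read from the GENCODE 29 transcripts with coordinates on GRCh38, and each is 30 bases long. In a junction the small letters are the upstream exon and the capitals the first bases after the junction, and in a frame end the capitals are the stop codon. SRSF6 (ENSG00000124193.14, chromosome 20, 43457928 to 43464247, plus strand) has a poison exon of 268 bases at chr20:43459153-43459420, carried by the decay transcript SRSF6-202 and skipped by the coding transcript SRSF6-201. The joined bases of the first line lie within chr20:43458495-43459167, those of the second within chr20:43459275-43459304 and those of the third within chr20:43458495-43459785.
SRSF6-202, into the poison exon: gctacggaagccgcaTGACCAATGGGGCTG
SRSF6-202, end of the frame: gccatgacgacagcagccttttgccatTAG
SRSF6-201, past the poison exon: gctacggaagccgcaGTGGTGGAGGTGGAT

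SRSF3 (ENSG00000112081.16, chromosome 6, 36594353 to 36605600, plus strand) has 2 such exons, one of 98 bases in SRSF3-204 (chr6:36598429-36598526) and one of 456 bases in SRSF3-203 (chr6:36599821-36600276). SRSF3-203 is shown too, although the rule named only SRSF3-204, and was chosen after its values were seen. The 5 stretches lie within chr6:36596954-36598443, chr6:36596954-36598863, chr6:36598969-36599835, chr6:36599825-36599854 and chr6:36598969-36601166. Each sequence printed here occurs in transcripts of 1 gene, apart from the last of SRSF3, which occurs in transcripts of 2 genes.
SRSF3-204, into the exon of 98 bases: agagctagatggaagGCTGGAGTGCAATGG
SRSF3-208, past the exon of 98 bases: agagctagatggaagAACACTATGTGGCTG
SRSF3-203, into the exon of 456 bases: tccacctcgtcgcagAGTCACCATCATGTC
SRSF3-203, end of the frame: accatcatgtctcttctcaccaccctcTGA
SRSF3-208, past the exon of 456 bases: tccacctcgtcgcagATCTCCAAGAAGGAG

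SRSF7 (ENSG00000115875.18, chromosome 2, 38743599 to 38751494, minus strand) has a poison exon of 449 bases in SRSF7-204 (chr2:38748898-38749346). Its stretches lie within chr2:38749332-38749543, chr2:38749319-38749530 and chr2:38748639-38749543.
SRSF7-204, into the poison exon: gcgaagaagaagcagGTTTCTTCGTTTGAG
SRSF7-204, end of the frame: aggtttcttcgtttgagtcagtcgcctTGA
SRSF7-202, past the poison exon: gcgaagaagaagcagGTCACGGTCTAGATC

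All 22 decay transcripts of the 10 genes have an annotated stop codon more than 50 bases ahead of their last exon junction. This describes the annotation that also gives the class, and is no measured result. In 10 of them the stop lies inside what is here called a poison-type exon, an internal exon that overlaps no exon of any coding transcript of the gene and lies within an intron of one. The 10 genes have 14 poison-type exons, and 13 had enough signal to be tested. By mean TPM over all libraries, the leading decay transcript was SRSF6-202 for SRSF6 at 34.6 TPM, SRSF3-204 for SRSF3 at 18.4 TPM, SRSF7-208 for SRSF7 at 16.8 TPM and SRSF1-207 for SRSF1 at 13.7 TPM. SRSF7-208 has no poison-type exon. SRSF2-208 averaged 4.91 TPM, and the leading decay transcripts of SRSF4, SRSF5, SRSF9, SRSF10 and SRSF11 averaged at most 1.71 TPM. The leading retained-intron transcript of SRSF3, SRSF3-206, averaged 91.5 TPM, more than any decay transcript of the 10 genes. The next were SRSF2-209 at 14.1 TPM, SRSF10-213 at 10.0 TPM and SRSF7-211 at 9.34 TPM.

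In wild-type cells SRSF3, a small SR protein that also acts as an export adaptor, had the highest level, with 224.5 ± 25.6 TPM for the whole gene (mean ± SD, n = 3 here and below). SRSF1, the founding member of the family, followed with 177.7 ± 30.7 TPM. SRSF4 was lowest with 34.2 ± 2.22 TPM, and none of its wild-type libraries reached those of another member. Between them SRSF11 (124.7 ± 12.8 TPM), SRSF5 (118.4 ± 12.7 TPM), SRSF9 (114.9 ± 24.0 TPM), SRSF7 (100.5 ± 13.1 TPM), SRSF2 (99.2 ± 15.6 TPM), SRSF6 (89.6 ± 7.72 TPM) and SRSF10 (76.8 ± 11.5 TPM) formed a series in which each gene overlapped with the next over the 3 libraries. The libraries of SRSF1 and SRSF3 also overlapped, while those of SRSF1 and SRSF11 did not.

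The class share differed widely between the members. In wild-type libraries the NMD share of SRSF7, a shuttling SR protein with a zinc knuckle, was 45.3 ± 4.72% of its reads, that of SRSF6 was 21.3 ± 0.946%, that of SRSF1 was 10.8 ± 2.07% and that of SRSF3 was 10.3 ± 1.91%. In SRSF2 it was 5.31 ± 2.17%, in SRSF4 2.90 ± 0.558% and in SRSF10 2.13 ± 0.339%. SRSF5, SRSF9 and SRSF11 stood below 1%. Retained-intron transcripts held 39.6 ± 1.42% of the reads of SRSF3, 38.0 ± 2.69% of SRSF5, 36.3 ± 5.63% of SRSF4, 28.4 ± 2.23% of SRSF10, 20.6 ± 4.58% of SRSF2 and 16.0 ± 3.14% of SRSF9, but only 4.30 ± 0.151% of SRSF7 and 1.24 ± 0.113% of SRSF1. SRSF6 and SRSF11 have no transcript of this class. Summed over the 10 genes, decay transcripts held 10.7 ± 1.31% of the reads in wild type, against 2.57 ± 0.116% over all other genes. Each of the 10 genes has an annotated decay transcript. The other genes include those without one, so these values are not on equal terms.

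The gene totals were compared first, and the plot of gene totals by group gives every library.

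**Figure D1:**
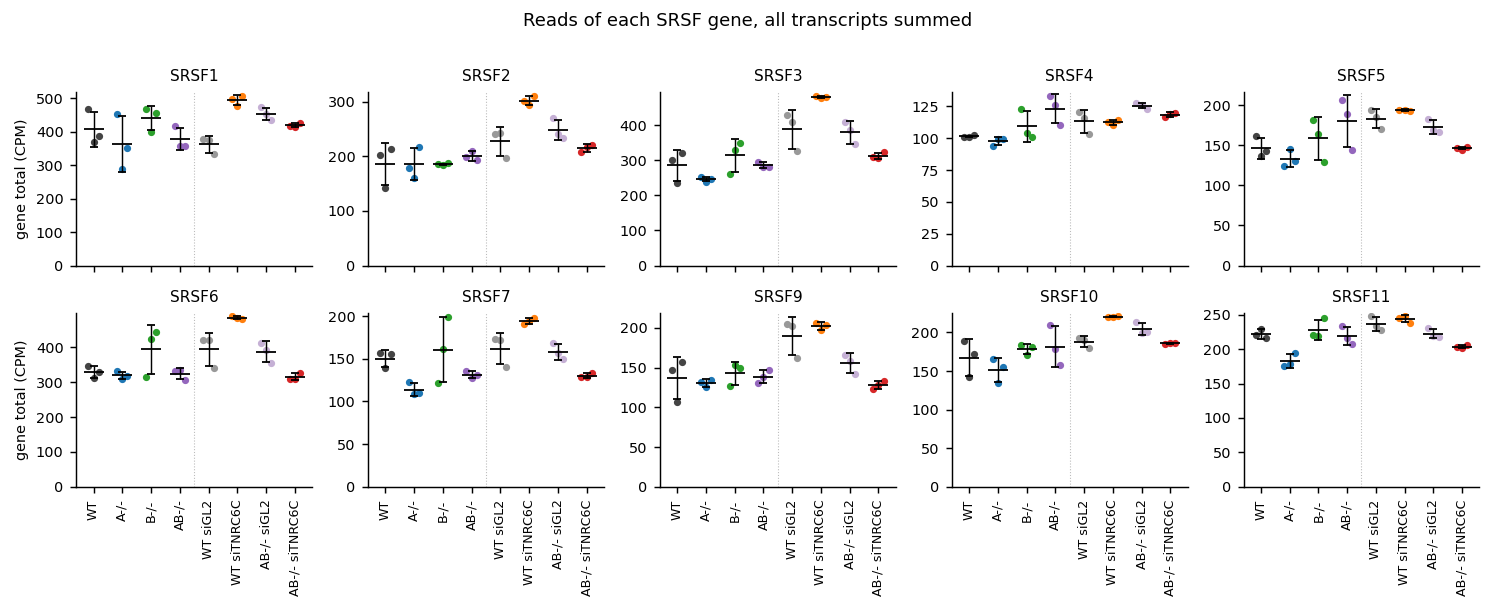
CPM (TMM scaled) of the 10 SRSF genes in each library (points) of the 8 groups, with bars for the group mean ± SD (n = 3); the dotted line separates untransfected from transfected groups. In TNRC6AB-/- siTNRC6C cells all 10 genes sit below TNRC6AB-/- siGL2 cells in all 3 libraries, while in TPM without scaling 6 of the 10 are lower in mean and 4 are higher.

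In TNRC6AB-/- cells given siTNRC6C, the group with the least TNRC6, 6 of the 10 genes fell in CPM against wild-type cells given siGL2 and none rose, though in TPM as deposited all but SRSF9 were higher. Over all 24153 genes tested, 25.2% fell in this comparison. The 6 were SRSF3, SRSF5, SRSF6, SRSF7, SRSF9 and SRSF11, and in each of them the 2 groups did not overlap, a pattern held by 32.0% of all genes. All 10 had a median log2 change of -0.26, where the median over all genes was 0.01.

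SRSF9, an SR protein that takes part in the choice of alternative splice sites, fell most. It stood at 204, 203 and 162 CPM in the wild-type siGL2 libraries and at 123, 128 and 132 CPM in the TNRC6AB-/- siTNRC6C libraries. Every library of the double knockout with siTNRC6C was thus below the lowest control library (log2 change -0.57, SE 0.12, adjusted p = 0.000502, edgeR). It was the only member that passed in this comparison under every alternative and without any 1 of the 24 libraries (adjusted p from 4.27e-05 to 0.00447 over the latter).

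SRSF6 stood at 420, 422 and 341 CPM in wild-type siGL2 and at 309, 310 and 327 CPM in TNRC6AB-/- siTNRC6C cells. SRSF3 stood at 429, 408 and 326 CPM in the control and at 309, 306 and 322 CPM in the treated double knockout. In both genes control replicate 3 was the lowest of its group and lay just above the treated libraries. SRSF6 fell by 0.32 on the log2 scale (SE 0.11, adjusted p = 0.0226, edgeR) and SRSF3 fell by 0.31 (SE 0.12, adjusted p = 0.0402). SRSF7 fell by 0.31 (174, 172 and 141 CPM in the control, 129, 129 and 133 CPM in the treated cells; adjusted p = 0.0415), SRSF5 fell by 0.32 (adjusted p = 0.0358) and SRSF11, an atypical relative of the family, fell by 0.22 (adjusted p = 0.029).

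SRSF1 moved the other way without passing the test: 378, 374 and 334 CPM in wild-type siGL2 against 416, 415 and 426 CPM in TNRC6AB-/- siTNRC6C cells (log2 change 0.21, adjusted p = 0.179). SRSF2, SRSF4 and SRSF10 overlapped between the groups. The 5 falls other than that of SRSF9 were each lost without any 1 of 5 to 7 libraries, among them TNRC6AB-/- replicate 2 and wild-type siGL2 replicates 1 and 2, and 1 member was called when no filter on low counts was applied (22.4% of all genes called). In a fit of only the 6 libraries 5 members fell and 2 rose, where 60.0% of all genes were called. SRSF11 failed in that edgeR fit (log2 change -0.12, adjusted p = 0.0552), on length-scaled TPM (-0.14, adjusted p = 0.217) and without the 4 libraries high in retained-intron reads (adjusted p = 0.0729). SRSF7 failed with DESeq2 (adjusted p = 0.054). SRSF3 (adjusted p = 0.0586) and SRSF7 (adjusted p = 0.0587) failed in edgeR with RLE in place of TMM scaling. The direction holds relative to the other genes. In TPM as deposited, where no scaling between libraries is made, 9 of the 10 members were higher in TNRC6AB-/- siTNRC6C cells (median log2 ratio 0.40). The median of 16972 genes was higher by 0.54. Only SRSF9 was lower on that scale too, at 121.6 ± 5.86 against 128.1 ± 2.13 TPM. Protein-coding genes held 45.1 to 48.7% of the TPM in wild-type siGL2 and 51.6 to 54.2% in TNRC6AB-/- siTNRC6C libraries. The cause of the difference between the scales was not tested.

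The same siRNA pool was set against siGL2 within each background. In TNRC6AB-/- cells all 10 members were lower in CPM with siTNRC6C than with siGL2 in all 3 libraries (in TPM as deposited 6 were lower in mean and 4, SRSF1, SRSF4, SRSF10 and SRSF11, higher), and 27.9% of all genes were lower without overlap in that comparison. None of the 10 passed edgeR's test (6.56% of all genes called), and 4 had an unadjusted p below 0.05, as had 24.0% of all genes. SRSF6 stood at 413, 394 and 355 CPM with siGL2 and at 309, 310 and 327 CPM with siTNRC6C, and showed the largest difference (log2 change -0.30, SE 0.11, adjusted p = 0.106). SRSF9 stood at 166, 159 and 142 CPM with siGL2 and at 123, 128 and 132 CPM with siTNRC6C (-0.28, adjusted p = 0.147). The median over the 10 genes was -0.22, against -0.02 over all genes. In a fit of only the 6 libraries 6 members were called lower, where 39.7% of all genes were called. Limma voom called 7 lower (35.4% of all genes called), DESeq2 called 0 (13.3%), and without the 4 libraries high in retained-intron reads 4 were called lower (20.2%).

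In wild-type cells siTNRC6C went with higher values of the same family. SRSF1, SRSF2, SRSF3, SRSF6, SRSF7 and SRSF10 were higher in all 3 siTNRC6C libraries than in any siGL2 library, a pattern held by 16.3% of all genes. None passed edgeR's test, in which 0.932% of all genes were called, and 6 members had an unadjusted p below 0.05, as had 12.8% of all genes. SRSF1 stood at 497, 477 and 506 CPM with siTNRC6C and at 378, 374 and 334 CPM with siGL2 (log2 change 0.45, SE 0.13, adjusted p = 0.0878). SRSF2 stood at 301, 295 and 311 CPM with siTNRC6C and at 242, 244 and 197 CPM with siGL2 (0.41, SE 0.13, adjusted p = 0.127). In both genes siGL2 replicate 3 was the lowest library, and the 3 siTNRC6C libraries lay close together. A fit of only the 6 libraries called 6 members higher, where 15.5% of all genes were called. Limma voom called 5 (7.95% of all genes called) and DESeq2 2 (4.18%). The median over the 10 genes was 0.25, against 0.00 over all genes.

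The siTNRC6C effect was then compared between the backgrounds as an interaction, though TNRC6C with siGL2 stood higher in TNRC6AB-/- than in wild-type cells. SRSF6 passed this test: its response in TNRC6AB-/- cells was lower than that in wild-type cells by 0.60 on the log2 scale (SE 0.16, adjusted p = 0.0392, edgeR), where 2.13% of all genes were called lower. SRSF6 went from 387.4 ± 29.8 to 315.5 ± 9.99 CPM in TNRC6AB-/- cells and from 394.3 ± 46.3 to 485.5 ± 4.31 CPM in wild-type cells. For all 10 members the difference was negative, with a median of -0.46 against -0.01 over all genes, and 7 had an unadjusted p below 0.05, as had 18.4% of all genes. SRSF2 (-0.62, adjusted p = 0.0595) and SRSF3 (-0.59, adjusted p = 0.0562) came close to the threshold. The call on SRSF6 was lost with the replicate block (adjusted p = 0.0583), on length-scaled TPM (adjusted p = 0.058) and without any 1 of 9 libraries, all of transfected cells. Limma voom called 8 members, where it called 20.1% of all genes, and DESeq2 5, where it called 10.4%. No member passed in the interaction of TNRC6A with TNRC6B loss or in that of the double knockout with siGL2 transfection. At an adjusted p below 0.05 edgeR called 7.75% and 8.72% of all genes in these. At an unadjusted p below 0.05 stood 0 and 2 members, and limma voom and DESeq2 called 0 in both.

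With siGL2 in both backgrounds no member passed between TNRC6AB-/- and wild-type cells, where edgeR called 21.7% of all genes at an adjusted p below 0.05. By edgeR 2 members had an unadjusted p below 0.05, and the percentage of all genes at that threshold is not given. SRSF1, SRSF4 and SRSF10 were higher in TNRC6AB-/- siGL2 without overlap, a pattern held by 18.4% of all genes. In TPM as deposited all 10 were higher in TNRC6AB-/- siGL2 (median log2 ratio 0.39), and so was the median gene, by 0.37. SRSF1 stood at 472, 453 and 435 CPM in TNRC6AB-/- siGL2 against 378, 374 and 334 CPM in wild-type siGL2 (log2 change 0.32, SE 0.13, adjusted p = 0.0681). A fit of only the 6 libraries called 5 members in this comparison (37.4% of all genes called), limma voom 2 (28.0%) and DESeq2 1 (21.8%).

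Among untransfected cells the members moved little. In TNRC6A-/- cells SRSF7 and SRSF11 fell and none rose, where 5.47% of all genes fell. SRSF7 stood at 122, 108 and 110 CPM against 157, 139 and 155 CPM in wild type (log2 change -0.40, SE 0.12, adjusted p = 0.0299, edgeR). SRSF11 stood at 175, 178 and 195 CPM against 221, 230 and 217 CPM (-0.28, SE 0.078, adjusted p = 0.0176). Neither gene overlapped between the groups, and SRSF4 was also lower in CPM without overlap but did not pass. In TPM as deposited SRSF4 was higher in mean, at 35.3 against 34.2 TPM. The percentage of all genes without overlap is not given for this comparison. The fall of SRSF7 was lost without wild-type replicate 1 or 3 or TNRC6A-/- replicate 2 or 3, and that of SRSF11 without TNRC6A-/- replicate 1 or 2. SRSF11 also failed with no filter on low counts (adjusted p = 0.0698), in a fit of only the 6 libraries (adjusted p = 0.092) and on length-scaled TPM (log2 change -0.21, adjusted p = 0.121). The other 8 members changed by -0.21 to 0.00 and did not pass.

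In TNRC6AB-/- cells SRSF4, the largest of the classical SR proteins, rose and none fell, where 17.2% of all genes rose. It stood at 133, 126 and 111 CPM against 101, 101 and 102 CPM in wild type, without overlap (log2 change 0.28, SE 0.087, adjusted p = 0.0168, edgeR). Without TNRC6AB-/- replicate 1 or 2 it did not pass, nor in a fit of only the 6 libraries (adjusted p = 0.211) or with no filter on low counts (adjusted p = 0.227). SRSF5 stood at 207, 189 and 144 CPM against 161, 136 and 142 CPM, and the groups overlapped (0.30, adjusted p = 0.0695). SRSF7 was lower without overlap and did not pass, and the percentage of all genes with that pattern is not given. In TNRC6B-/- cells none of the 10 passed in CPM, with log2 changes from 0.00 to 0.26, where edgeR called 3.14% of all genes at an adjusted p below 0.05. Limma voom and DESeq2 called 0 members, and 1 had an unadjusted p below 0.05 by edgeR. In TPM as deposited all 10 were lower in TNRC6B-/- than in wild-type cells (median log2 ratio -0.17), where the median over genes was -0.24. Without the 4 libraries high in retained-intron reads, TNRC6B-/- replicate 1 among them, 1 member was called there, and 19.0% of all genes.

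Transfected and untransfected cells of the same genotype also differed. Between wild-type siGL2 and wild-type cells SRSF3 and SRSF9 rose and none fell, where 16.4% of all genes rose. SRSF9 stood at 204, 203 and 162 CPM with siGL2 and at 146, 107 and 157 CPM without transfection (log2 change 0.47, SE 0.12, adjusted p = 0.00667, edgeR). SRSF3 stood at 429, 408 and 326 CPM with siGL2 and at 302, 235 and 320 CPM without (0.44, SE 0.12, adjusted p = 0.011). In both genes the lowest siGL2 library lay just above the highest untransfected one. Neither passed without wild-type replicate 2 or in a fit of only the 6 libraries (log2 changes 0.35 for SRSF3 and 0.39 for SRSF9, 0.424% of all genes called), and SRSF3 also failed without wild-type siGL2 replicate 1 or 2. SRSF4 and SRSF5 were also higher in CPM with siGL2 without overlap and did not pass, and the percentage of all genes with that pattern is not given. In TPM as deposited 8 of the 10 members were lower with siGL2 (median log2 ratio -0.17), while the median over genes was lower by -0.34.

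Between TNRC6AB-/- siGL2 and TNRC6AB-/- cells SRSF3 rose and none fell, where 9.74% of all genes rose. SRSF3 stood at 410, 386 and 345 CPM with siGL2 and at 295, 281 and 280 CPM without, so that the groups did not overlap (log2 change 0.42, SE 0.12, adjusted p = 0.0168, edgeR). Without TNRC6AB-/- siGL2 replicate 1 or 2 it did not pass, nor on length-scaled TPM (log2 change 0.33, adjusted p = 0.076). SRSF1, SRSF2, SRSF6 and SRSF7 were also higher with siGL2 without overlap and did not pass. How many of all genes show that pattern here is not given, so it only describes these libraries. A fit of only the 6 libraries called 4 members (24.1% of all genes called), and 3 were called without the 4 libraries high in retained-intron reads (22.9%). In these bulk samples fewer cells that express a gene and less RNA per cell cannot be told apart.

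The second question was whether the share of decay transcripts shifted. It was tested in 9 members, since decay reads of SRSF9 were too few (at most 0.326% of its reads in a library). The test compares the reads of the class with the gene's own total, over 3838 genes.

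**Figure D2:**
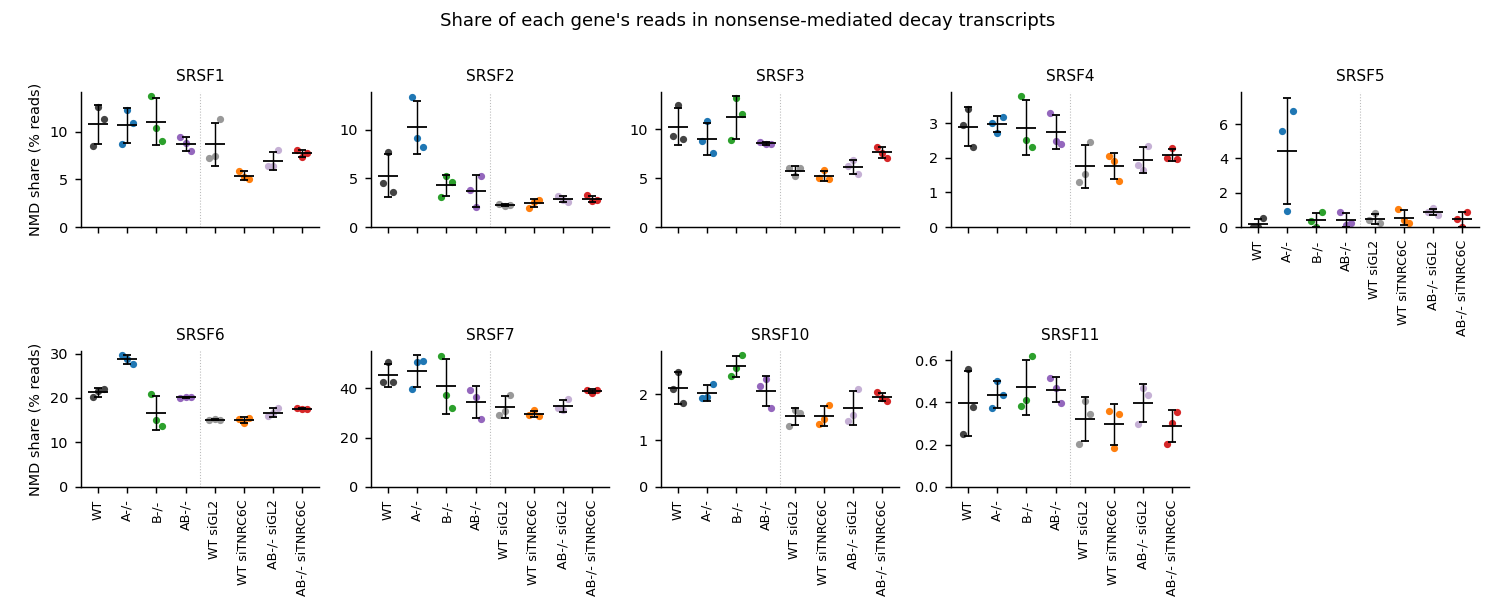
Percentage of a gene's estimated reads in nonsense-mediated decay transcripts for 9 SRSF genes in each library (points) of the 8 groups, with bars for the group mean ± SD (n = 3), cut off at 0. SRSF6 is highest in TNRC6A-/- cells, at 27.6 to 29.6%, and no other group reaches that range.

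In TNRC6A-/- cells the NMD share of SRSF6 rose, the only member of 9 to do so, where 2.74% of all shares tested rose. It was 29.6, 28.8 and 27.6% in the TNRC6A-/- libraries against 20.2, 21.6 and 22.0% in wild type. All 3 knockout libraries were above every other library of the 24 (log2 change of the share 0.43, SE 0.097, adjusted p = 0.0159, edgeR). The gene total of SRSF6 was 320.0 ± 10.7 against 329.4 ± 17.6 CPM (adjusted p = 0.843), and SRSF6-202 itself stood at 49.9 ± 4.62 against 38.3 ± 2.04 TPM. Fragments were shorter in TNRC6A-/- libraries, at 164 to 171 bases, than in wild type, at 181 to 189 bases, and the 2 groups did not overlap in length either, so that genotype and fragment length cannot be told apart here. Without wild-type replicate 1 (adjusted p = 0.0667) or TNRC6A-/- replicate 1 (adjusted p = 0.0553) the share did not pass. In TNRC6AB-/- cells, which lack TNRC6A as well, it was 20.0, 20.1 and 20.2%, and it overlapped with wild type in value.

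For 2 further members the share was higher in TNRC6A-/- without passing. That of SRSF2, which promotes exon inclusion from purine- and pyrimidine-rich enhancers alike, was 13.4, 9.17 and 8.27% against 4.57, 7.75 and 3.60% in wild type. The groups did not overlap (log2 change 0.96, SE 0.30, adjusted p = 0.0711). The share of SRSF5 was 5.57, 0.913 and 6.77% in TNRC6A-/- and 0, 0 and 0.509% in wild type (adjusted p = 0.077). Its decay transcript SRSF5-211 averaged 2.41 ± 1.59 TPM in TNRC6A-/- and 0.0989 ± 0.171 TPM in wild type, and TNRC6A-/- replicate 2 stood near the other groups. The shares of SRSF1, SRSF3, SRSF7 and the others overlapped between the groups.

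No share of decay transcripts passed in TNRC6B-/- or TNRC6AB-/- cells (0.0521% and 0.208% of all shares called; 1 member each at an unadjusted p below 0.05 by edgeR, 0 called by limma on log2 odds of TPM). In SRSF7, TNRC6AB-/- libraries held 39.5, 36.7 and 27.3% against 42.5, 50.7 and 42.7% in wild type (log2 change -0.39, SE 0.16, adjusted p = 0.347). TNRC6B-/- replicate 1 stood apart from its group in several members: 53.3% for SRSF7, against 37.1 and 32.1% in the other two libraries, and 20.9% for SRSF6, against 15.0 and 13.7%. It was also the library with the highest retained-intron share.

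The widest movement of the decay share was between transfected and untransfected wild-type cells. In wild-type siGL2 cells the NMD shares of SRSF2, SRSF3 and SRSF6 fell, 3 of 9 members, where 1.62% of all shares tested fell. That of SRSF3 was 6.07, 5.24 and 6.03% with siGL2 and 9.33, 12.5 and 9.01% without transfection (log2 change -0.83, SE 0.15, adjusted p = 0.00958, edgeR). That of SRSF6 was 15.1, 15.2 and 15.1% with siGL2, against 20.2, 21.6 and 22.0% (-0.49, SE 0.097, adjusted p = 0.0131). That of SRSF2 was 2.39, 2.21 and 2.22%, against 4.57, 7.75 and 3.60% (-1.22, SE 0.30, adjusted p = 0.0432).

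None of these 3 genes overlapped between the groups, a pattern that was not counted over all shares. In SRSF7 the share was 29.1, 30.8 and 37.3% with siGL2 and 42.5, 50.7 and 42.7% without (-0.48, adjusted p = 0.108). The median over the 9 members was -0.48, against -0.22 over all shares tested, and 6 had an unadjusted p below 0.05, as had 18.5% of all shares. Fragments were 196 bases or longer in the transfected libraries and at most 189 bases in the wild-type ones, and the part of fragment length in these shares was not tested. With the library-wide retained-intron share as a covariate the call on SRSF3 was left, while SRSF2 (log2 change -1.39, adjusted p = 0.116) and SRSF6 (-0.31, adjusted p = 0.146) did not pass. In a fit of only the 6 libraries the call on SRSF6 was left, and SRSF2 (-1.22, adjusted p = 0.166) and SRSF3 (-0.83, adjusted p = 0.111) had the same log2 change but did not pass. On log2 odds of TPM SRSF2 (adjusted p = 0.101) and SRSF6 (adjusted p = 0.0692) did not pass. SRSF3 did not pass without wild-type replicate 2 (adjusted p = 0.0657), SRSF6 without wild-type replicate 2 or wild-type siGL2 replicate 1, and SRSF2 without any 1 of 13 libraries.

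In TNRC6AB-/- cells the same step from no transfection to siGL2 gave no call by edgeR, where 0.547% of all shares were called at an adjusted p below 0.05. Limma on log2 odds of TPM called 0 members. By edgeR 2 had an unadjusted p below 0.05, and the percentage of all shares at that threshold is not given. SRSF3 went from 8.70, 8.48 and 8.48% to 6.20, 6.83 and 5.43% (log2 change -0.47, adjusted p = 0.198) and SRSF6 from 20.0, 20.1 and 20.2% to 15.8, 16.6 and 17.7% (-0.27, adjusted p = 0.265). Both genes were lower with siGL2 without overlap.

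Within transfected cells no NMD share passed edgeR's test or limma's on log2 odds of TPM. In wild-type cells siTNRC6C against siGL2 gave 0.0261% of all shares called and 1 member at an unadjusted p below 0.05, and SRSF1 showed the largest difference among the better-covered members, at 5.95, 5.23 and 5.07% with siTNRC6C and 7.30, 7.45 and 11.3% with siGL2 (log2 change -0.68, adjusted p = 0.746). In TNRC6AB-/- siTNRC6C against wild-type siGL2 2.74% of all shares were called at an adjusted p below 0.05. There 2 members had an unadjusted p below 0.05, and the percentage of all shares at that threshold is not given. SRSF3 stood at 8.21, 7.59 and 7.10% against 6.07, 5.24 and 6.03% (0.40, adjusted p = 0.163), and SRSF6 at 17.7, 17.5 and 17.5% against 15.1, 15.2 and 15.1%. In both genes the double knockout with siTNRC6C was higher in every library. Between TNRC6AB-/- siTNRC6C and TNRC6AB-/- siGL2 0.0521% of all shares were called, and between TNRC6AB-/- siGL2 and wild-type siGL2 0.391%, with 0 members at an unadjusted p below 0.05 in either. SRSF7 stood at 39.3, 38.1 and 39.3% with siTNRC6C and at 31.9, 31.0 and 35.6% with siGL2 in TNRC6AB-/- cells (0.24, adjusted p = 0.96).

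Inclusion of the single poison-type exons was measured as the percentage of TPM from transcripts with the exon among those that span it. None of the 13 exons tested passed in any of the 9 comparisons (limma on log2 odds of TPM, over 2696 exons), nor with reads in place of TPM.

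**Figure D3:**
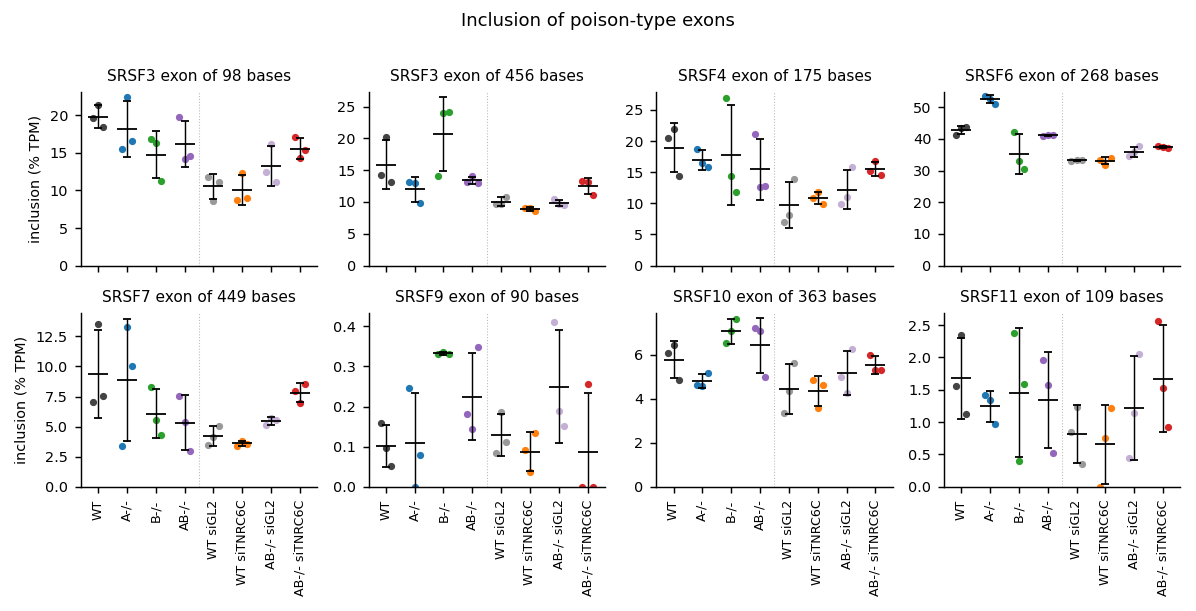
Inclusion of 8 poison-type exons of SRSF genes, as a percentage of the TPM of transcripts that span the exon, in each library (points) of the 8 groups, with bars for the group mean ± SD (n = 3), cut off at 0. The exon of 268 bases in SRSF6 lies at 51.2 to 53.6% in TNRC6A-/- cells and at 41.2 to 43.8% in wild type.

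The exon of 268 bases in SRSF6, whose junction and stop are printed above, was the most included. It stood at 53.6, 52.6 and 51.2% in TNRC6A-/- cells and at 41.2, 43.3 and 43.8% in wild type. The groups did not overlap (log2 odds difference 0.56, SE 0.18, adjusted p = 0.0838), 1 exon of the 13 had an unadjusted p below 0.05, and 2.45% of all exons tested were called. With a pseudocount of 0.5 TPM in place of 0.1, or with the library-wide retained-intron share as a covariate, 1 exon was called (7.31% and 5.27% of all exons). SRSF6 has 1 coding and 1 decay transcript, so its inclusion and its NMD share rest on the same reads.

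Between wild-type siGL2 and wild-type cells 8 of the 13 exons had an unadjusted p below 0.05, all lower with siGL2, as had 15.0% of all exons tested. At an adjusted p below 0.05 it was 0 of the 13 and 0.223% of all exons. The median difference over the 13 was -0.84, against -0.29 over all exons tested. The exon of 98 bases in SRSF3 stood at 11.9, 8.59 and 11.2% with siGL2 and at 19.6, 21.5 and 18.4% without, with no overlap (-1.07, SE 0.26, adjusted p = 0.0713). Its exon of 456 bases stood at 9.75, 9.61 and 10.8% with siGL2 and at 14.2, 20.3 and 13.1% without. The exon of 175 bases in SRSF4 (-1.14, adjusted p = 0.139), the exon of 449 bases in SRSF7 (-1.16, adjusted p = 0.187) and the exon of 268 bases in SRSF6 (-0.58, adjusted p = 0.131) had the same sign.

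In TNRC6AB-/- siTNRC6C against wild-type siGL2 cells 3 exons had an unadjusted p below 0.05, as had 18.0% of all exons, and 1.22% of all exons were called. The exon of 449 bases in SRSF7 stood at 7.97, 6.97 and 8.52% in the treated double knockout and at 3.45, 4.10 and 5.06% in the control, without overlap (0.94, SE 0.43, adjusted p = 0.261). In TNRC6B-/- cells 0.00% of all exons were called at an adjusted p below 0.05. There 2 of the 13 had an unadjusted p below 0.05, 1 higher and 1 lower, and the percentage of all exons at that threshold is not given. The shares of exons called were 0.334% for TNRC6AB-/-, 0.00% for siTNRC6C in wild-type and in TNRC6AB-/- cells (1 exon of the 13 at an unadjusted p below 0.05 in the latter), 0.148% for TNRC6AB-/- siGL2 against wild-type siGL2 and 0.0371% for siGL2 in TNRC6AB-/- cells. The exon of 109 bases in SRSF11 reached at most 2.56% and that of 90 bases in SRSF9 at most 0.41% in any library, and the exon of 363 bases in SRSF10, a splicing repressor when it is dephosphorylated, stood between 3.36 and 7.63%.

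Retained-intron transcripts were tested in the same way in 8 members, over 6512 genes.

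**Figure D4:**
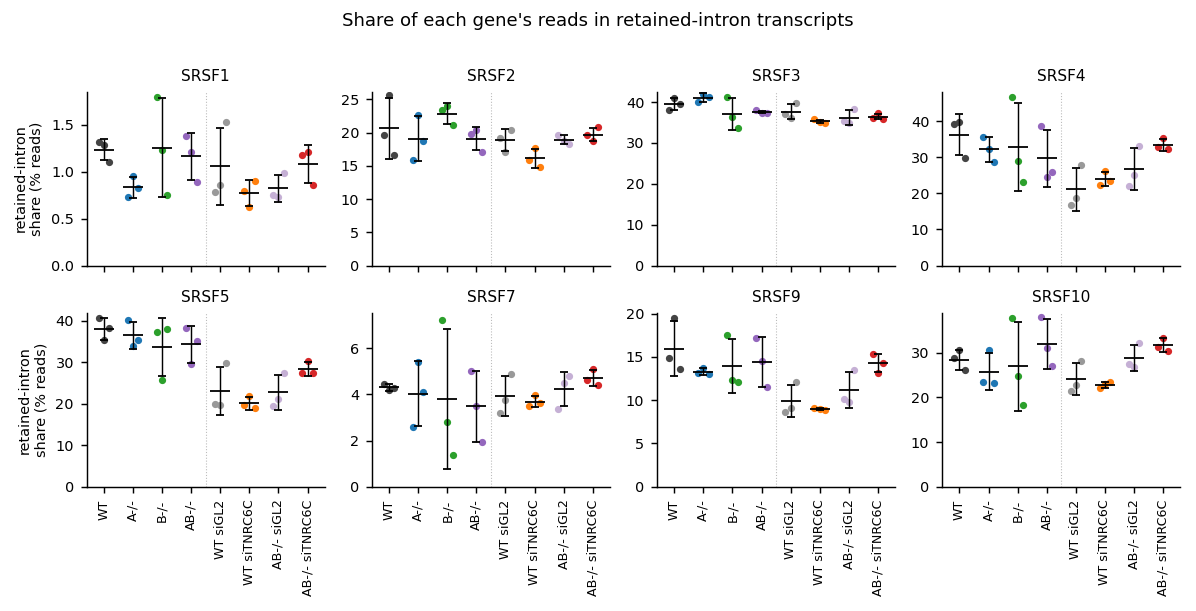
Percentage of a gene's estimated reads in retained-intron transcripts for 8 SRSF genes in each library (points) of the 8 groups, with bars for the group mean ± SD (n = 3), cut off at 0. In wild-type siGL2 cells SRSF5 lies at 19.8 to 29.7%, below the 35.3 to 40.7% of wild type.

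Between wild-type siGL2 and wild-type cells the retained-intron shares of SRSF4, SRSF5 and SRSF9 fell, 3 of 8 members, where 13.0% of all shares tested fell. That of SRSF5, first described as an insulin-induced gene, was 19.8, 19.8 and 29.7% with siGL2 and 40.7, 35.3 and 38.1% without (log2 change -0.72, SE 0.16, adjusted p = 0.014, edgeR). That of SRSF4 was 16.9, 18.7 and 28.0% with siGL2 and 39.3, 39.8 and 29.8% without (-0.78, SE 0.23, adjusted p = 0.0351). That of SRSF9 was 8.60, 9.05 and 12.0% with siGL2 and 14.8, 19.5 and 13.5% without (-0.69, SE 0.18, adjusted p = 0.0209).

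In all 3 genes the groups did not overlap, a pattern that was not counted over all shares. Wild-type siGL2 replicate 3, the control library with the highest retained-intron share over all genes, was nearest to the untransfected libraries. Over all genes the retained-intron share moved the same way, with a median of -0.42 against -0.23 over the 8 members. With the library-wide retained-intron share as a covariate none of the 3 passed (log2 changes -0.19 for SRSF4, -0.50 for SRSF5 and -0.28 for SRSF9, adjusted p = 0.322, 0.123 and 0.208), nor in a fit of only the 6 libraries, where the changes were as before. Each was also lost without wild-type replicate 2 or without wild-type siGL2 replicate 1 or 2, and SRSF4 further without wild-type replicate 1.

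In TNRC6AB-/- siTNRC6C against wild-type siGL2 cells no member passed, where 13.7% of all shares were called (3 members at an unadjusted p below 0.05 by edgeR, as had 32.7% of all shares). SRSF9 stood at 15.4, 13.2 and 14.3% against 8.60, 9.05 and 12.0% (log2 change 0.53, SE 0.18, adjusted p = 0.0513) and SRSF4 at 32.7, 35.3 and 32.2% against 16.9, 18.7 and 28.0% (0.66, SE 0.23, adjusted p = 0.0619). SRSF10 was also higher without overlap (0.39, adjusted p = 0.146). The median over the 8 members was 0.27, against 0.37 over all shares tested, and 3 members were called in a fit of only the 6 libraries (17.3% of all shares called) and 1 by limma on log2 odds of TPM (10.2%).

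In the other comparisons none of the 8 passed edgeR's test or limma's on log2 odds of TPM, and 0 had an unadjusted p below 0.05 by edgeR, apart from 2 between TNRC6AB-/- siGL2 and TNRC6AB-/- cells. The shares called over all genes were 1.41% for TNRC6A-/-, 0.00% for TNRC6B-/-, 0.676% for TNRC6AB-/-, 0.00% for siTNRC6C in wild-type cells, 0.0307% for it in TNRC6AB-/- cells, 0.491% for TNRC6AB-/- siGL2 against wild-type siGL2 and 0.430% for siGL2 in TNRC6AB-/- cells. SRSF4 showed the spread between libraries that limits these tests, with 46.6, 28.9 and 23.1% in the 3 TNRC6B-/- libraries. SRSF3, whose retained-intron transcripts held the largest part of its wild-type reads among the 8, stood between 33.7 and 42.0% in all 24 libraries. SRSF3-206 alone stood at 50.9 ± 3.05 TPM in TNRC6A-/-, 76.2 ± 6.34 TPM in wild type and 126 ± 3.33 TPM in wild-type siTNRC6C cells.

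**Figure D5:**
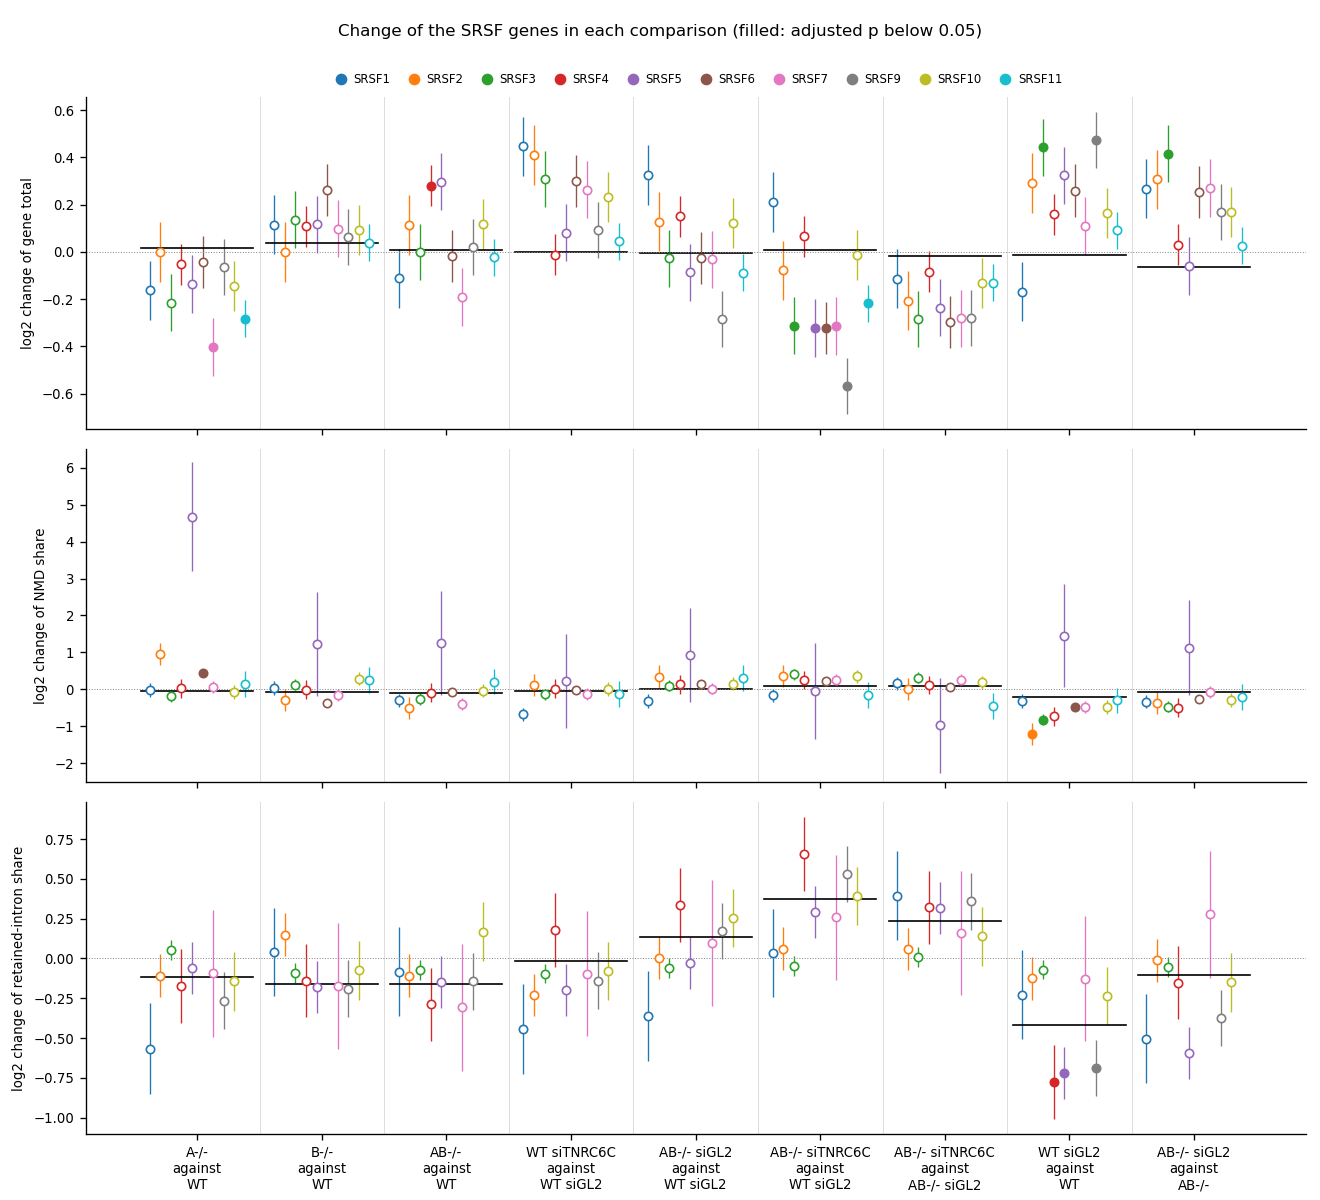
Log2 changes ± SE of the gene total (top), the NMD share (middle) and the retained-intron share (bottom) of the SRSF genes in the 9 comparisons; filled points have an adjusted p below 0.05 and black bars mark the median over all features tested. In the comparison of TNRC6AB-/- siTNRC6C with wild-type siGL2 6 gene totals are filled, all below 0 on this TMM scale (in deposited TPM only SRSF9 is lower).

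The plot of changes by comparison sets the 3 measures side by side. Summed over the 10 genes, decay transcripts held 12.3 ± 0.367% of the reads in TNRC6A-/-, 9.94 ± 0.764% in TNRC6B-/- and 8.54 ± 0.367% in TNRC6AB-/- cells, beside the 10.7 ± 1.31% of wild type. They held 7.27 ± 0.551% in wild-type siGL2, 6.73 ± 0.0553% in wild-type siTNRC6C, 7.47 ± 0.329% in TNRC6AB-/- siGL2 and 8.10 ± 0.208% in TNRC6AB-/- siTNRC6C cells. Each transfected group was thus below the untransfected group of its genotype in mean. Across the 24 libraries Pearson's r between pairs of members ran from 0.0984 to 0.91 with a median of 0.63 in log2 CPM, a description over libraries that share groups and depth. The genes whose profile was most like the mean of the 10 were FAM98B (r = 0.948), HNRNPR (0.940) and HNRNPA3 (0.937), out of 10043 genes of at least 10 CPM.

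Other genes of the splicing and decay pathways were counted from lists. In TNRC6AB-/- siTNRC6C against wild-type siGL2 cells, the comparison most of these counts are from, 17.0% of all genes rose and 25.2% fell. Of 16 other SR and SR-related factors 2 rose and 6 fell in TNRC6AB-/- siTNRC6C against wild-type siGL2 cells, and of the 6 only TRA2A was lower in deposited TPM too. TRA2A, a splicing activator of the same type with a poison exon of its own, fell there (73.1 against 151 CPM, log2 change -1.05, SE 0.12, adjusted p = 4.12e-07, edgeR) and in TNRC6AB-/- against wild type (72.9 against 118 CPM, -0.69, adjusted p = 0.00011). Of 9 SR protein kinases and importers 2 rose and 4 fell in CPM in the first of these comparisons. Among the 4 were CLK3, a kinase of SR proteins (-0.70, adjusted p = 3.26e-05, edgeR), and TNPO3, which carries SR proteins into the nucleus (96.3 against 137 CPM, -0.51, adjusted p = 4.1e-05). Only 1 of the 4 was lower in TPM too, so CLK3 and TNPO3 were not both lower on that scale. Of 21 hnRNP genes, which often oppose SR proteins, 12 fell and none rose in CPM in that comparison. Among the 12 were HNRNPC (544 against 978 CPM, -0.85, adjusted p = 4.96e-06, edgeR) and HNRNPA2B1 (871 against 1862 CPM, -1.10, adjusted p = 0.000133). Of the 12, 4 were lower in TPM too, and these are not named here. Between wild-type siGL2 and wild-type cells 17 of the 21 rose in CPM and none fell, where 16.4% of all genes rose. HNRNPK was among the 17 (919 against 601 CPM, 0.61, adjusted p = 0.000655, edgeR). Of the 17, 10 were higher in TPM too, and these are not named here.

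Of 14 NMD factors 3 rose and 4 fell in TNRC6AB-/- siTNRC6C against wild-type siGL2 cells, where 17.0% of all genes rose and 25.2% fell. Of the 4 that fell, 3 were lower in TPM too. The median log2 change of the 14 was -0.02, against 0.01 over all genes, and the 3 that rose are not named here. EIF4A3, a core protein of the exon junction complex that marks the junctions read by NMD, fell there (95.9 against 211 CPM, log2 change -1.14, adjusted p = 3.9e-07, edgeR) and against TNRC6AB-/- siGL2 (-0.62, adjusted p = 0.0064). UPF2, which bridges that complex to the decay machinery, fell as well (-0.66, adjusted p = 2.35e-06), and in TNRC6A-/- (-0.29, adjusted p = 0.0261) and TNRC6AB-/- cells (-0.44, adjusted p = 0.000448). The 14 factors went both ways: 1 rose and 2 fell in TNRC6A-/- cells, where 5.47% of all genes fell. In TNRC6AB-/- cells 3 rose and 2 fell, where 17.2% of all genes rose and 12.3% fell. Against TNRC6AB-/- siGL2 3 fell and none rose with siTNRC6C, where 6.56% of all genes were called. Of 10 natural substrates of NMD, whose RNA is held low by decay, 8 fell and none rose in TNRC6AB-/- against wild type, where 12.3% of all genes fell (median log2 change -1.03), with SNHG12 at 28.0 against 53.1 CPM (-0.92, adjusted p = 4.58e-07). With siGL2 in both genotypes 1 of the 10 fell and none rose, where 12.5% of all genes fell (median -0.18), and 7 of the 10 were higher in TPM as deposited. In TNRC6AB-/- siTNRC6C against wild-type siGL2 8 fell (median -0.73; 6 of the 8 lower in TPM too), and in TNRC6A-/- 4 fell, where 5.47% of all genes fell (-0.41), SNHG15 among them (-0.68, adjusted p = 0.00132). Between wild-type siGL2 and wild-type cells 2 fell and none rose, where 8.41% of all genes fell (-0.28), and between TNRC6AB-/- siGL2 and TNRC6AB-/- cells 4 rose and none fell, where 9.74% of all genes rose (0.36).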

How the data were processed

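RNA of 24 HCT116 libraries was quantified by the authors with Salmon 0.11.0; STAR 2.5.3a and DESeq2 (version not given) were used elsewhere in the study. The sample labels name Trizol and a strand-specific kit, while the published methods name RNeasy columns. For each of 199612 transcripts the authors deposited Salmon's estimated count of reads and its TPM, an abundance scaled for transcript length and library size. How Salmon splits reads between isoforms of a gene is an estimate, and its error is not in these tables.

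Of the transcripts 199368 matched GENCODE 29, and reads of the 244 others made up 0.0544% of a library or less. Estimated counts were summed to genes, rounded, filtered with filterByExpr (24153 genes left), scaled by TMM and fitted with edgeR 4.0.16 (R 4.3.3) with 8 group means and no block, leaving 16 residual degrees of freedom. SE is the log2 change divided by the root of its F statistic. Class shares were tested with the gene total as offset at a mean of at least 10 reads in the class, and exon inclusion with limma 3.58.1 on log2 odds of TPM (pseudocount 0.1, at least 1 TPM spanning and 0.1 TPM with the exon). DESeq2 1.42.0, limma voom, other filters and scalings, fits of the 6 compared libraries and leaving out each library were the alternatives. No 2 libraries agreed within counting noise. The main fits of gene totals, class shares and exon inclusion were tried on simulated data, scored for TNRC6AB-/- against wild type only. Replicate numbers were not taken to pair the libraries: deviations of same-numbered libraries correlated at -0.32 to 0.35, and not every pair passed 0.1. The highest values, 0.35 and 0.22, were those of replicates 3 and 1 between TNRC6AB-/- siGL2 and wild-type siGL2. Both replicate 3 libraries were among the 4 high in retained-intron reads, and whether they were processed together was not tested.

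The text names the 10 genes, their leading transcripts and exons of each class by mean TPM, and up to 2 genes per list and comparison by adjusted p; of the last only a part is printed. The members, gene lists and tests were chosen with earlier results of these data known. The frame end of SRSF3-204 is not reported here, and Argonaute knockout and eCLIP data were not analysed here.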

Additional observations from a re-analysis of the deposited data

Results flagged for a closer look

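One result was picked out because the same siRNA pool gave different effects in 2 backgrounds. Its target was not reduced from equal levels. TNRC6C averaged 120 CPM with siGL2 and 19.7 CPM with siTNRC6C in TNRC6AB-/- cells, and 53.7 and 21.0 CPM in wild-type cells. The part of this difference was not tested. The effect of siTNRC6C on the SRSF6 total was -0.30 on the log2 scale in TNRC6AB-/- cells and 0.30 in wild-type cells, and the difference of -0.60 passed the interaction test (SE 0.16, adjusted p = 0.0392, edgeR over 24153 genes). SRSF6 was lower with siTNRC6C in 3 of 3 TNRC6AB-/- libraries and higher in 3 of 3 wild-type libraries, without overlap in either background. The adjusted p ran from 0.00368 to 0.13 when any 1 of the 24 libraries was left out.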

How the results depend on the processing

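No alternative fit changed the sign of a called value, but in TPM as deposited 5 of the 6 genes that fell in TNRC6AB-/- siTNRC6C against wild-type siGL2, all but SRSF9, were higher. Of the values of single members 100 kept their side of the threshold and 38 lost it, and of the counts of called members 225 stayed within 1.5 times the first count and 45 did not. For gene totals, with no filter on low counts the members called went from 2 to 1 in TNRC6A-/-, from 1 to 0 in TNRC6AB-/-, from 6 to 1 in TNRC6AB-/- siTNRC6C against wild-type siGL2 and from 1 to 3 in the siTNRC6C interaction. In a fit of only the 6 libraries they were 1 in TNRC6A-/-, 0 in TNRC6AB-/-, 6 for siTNRC6C in wild-type cells, 5 for TNRC6AB-/- siGL2 against wild-type siGL2, 6 for siTNRC6C in TNRC6AB-/- cells, 0 for siGL2 in wild-type and 4 in TNRC6AB-/- cells. That fit moved the median of all genes in TNRC6AB-/- siTNRC6C against wild-type siGL2 from 0.01 to 0.10, and 51.7% of its called genes were higher, against 40.4%. Length-scaled TPM gave 1 in TNRC6A-/-, 1 in TNRC6AB-/- siGL2 against wild-type siGL2 and 0 in the siTNRC6C interaction. Limma voom gave 5 for siTNRC6C in wild-type cells, 2 for TNRC6AB-/- siGL2 against wild-type siGL2, 7 for siTNRC6C in TNRC6AB-/- cells and 8 in the interaction, and DESeq2 2, 1, 0 and 5. Without the 4 libraries high in retained-intron reads, an alternative chosen after seeing the data, the counts were 1 in TNRC6B-/-, 4 for siTNRC6C and 3 for siGL2 in TNRC6AB-/- cells, 3 in the siTNRC6C interaction and 2 in the interaction of TNRC6A with TNRC6B loss. DESeq2 also moved the median of the siTNRC6C interaction from -0.01 to -0.12, and 57.8% of its calls for siTNRC6C in wild-type cells were higher, against 42.7%.

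For NMD shares, log2 odds of TPM gave 2 and a minimum of 50 reads 2 in TNRC6A-/-, a fit of only the 6 libraries gave 1 in TNRC6AB-/- siTNRC6C against wild-type siGL2, and log2 odds, the fit of 6 libraries and the retained-intron covariate (chosen after seeing the data) each gave 1 for wild-type siGL2 against wild type. For retained-intron shares the covariate gave 1 in TNRC6AB-/- and 1 for siGL2 in TNRC6AB-/- cells. In TNRC6AB-/- siTNRC6C against wild-type siGL2 log2 odds, 50 reads and the covariate gave 1 each and the 6 libraries 3. In wild-type siGL2 against wild type log2 odds gave 1, the 6 libraries 0 and the covariate 0. Poison exons gave 1 in TNRC6A-/- with a pseudocount of 0.5 and with the covariate. The causes were not tested.

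With 1 library left out at a time the number of gene totals called ran from 0 to 2 in TNRC6A-/-, 0 to 1 in TNRC6B-/-, 0 to 2 in TNRC6AB-/-, 0 to 2 for siTNRC6C in wild-type and 0 to 2 in TNRC6AB-/- cells, 0 to 2 for TNRC6AB-/- siGL2 and 1 to 6 for TNRC6AB-/- siTNRC6C against wild-type siGL2, 0 to 5 for siGL2 in wild-type and 0 to 3 in TNRC6AB-/- cells, and 0 to 4, 0 to 1 and 0 to 1 in the interactions of siTNRC6C, of TNRC6A with TNRC6B loss and of the double knockout with transfection. NMD shares ran from 0 to 2 in TNRC6A-/-, 0 to 1 in TNRC6B-/-, 0 to 4 for siGL2 in wild-type and 0 to 1 in TNRC6AB-/- cells and 0 to 1 for TNRC6AB-/- siTNRC6C against wild-type siGL2. Retained-intron shares ran from 0 to 3 in the last comparison and 0 to 3 for siGL2 in wild-type cells, and poison exons 0 to 1 in TNRC6A-/-. All other counts were 0 throughout.

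The replicate block gave 1 member in TNRC6AB-/- siGL2 against wild-type siGL2 and 0 in the siTNRC6C interaction, where the adjusted p of SRSF6 was 0.0583. With the block SRSF3 (0.0517), SRSF7 (0.0524) in TNRC6AB-/- siTNRC6C against wild-type siGL2 and the NMD share of SRSF2 in wild-type siGL2 cells (0.0677) no longer passed. It changed no other call on a named value. Since it is not known whether the numbers pair any libraries, these values say nothing of the size of an effect. Depth limited mainly the decay transcripts of SRSF5 and SRSF9, which held few reads.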
